A study of Arabidopsis thaliana with 12 samples.

Results

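The comparison described here set roots of tga1 tga4 double mutant seedlings against roots of Col-0 wild-type seedlings after treatment with potassium chloride (KCl), the control salt of a nitrate experiment in Arabidopsis thaliana. Its members were chosen by their titles as the 3 tga1 tga4 KCl samples and the 3 wild-type KCl samples, 6 of the 12 samples of the series. The other 6 samples were 3 tga1 tga4 and 3 wild-type root samples given 5 mM potassium nitrate (KNO3), and they entered the model and the comparison across salts. Seedlings of both genotypes, whole and 15 days old when treated, had grown for 14 days in hydroponic medium in which 0.5 mM ammonium succinate supplied the nitrogen and 3 mM sucrose the sugar, under 16 h of light and 8 h of dark at 22 °C. The salt, at 5 mM, was given for 2 h from the start of the light period, and whole roots were then cut. The KCl samples therefore show the genotype difference in roots that had ammonium as their nitrogen source and had received no nitrate. The labels describe independent biological replicates and do not say whether these were separate cultures or days. The p-values reflect the spread among the samples at hand, and part of that spread may be technical. The labels do not give the alleles of the mutant.

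TGA1 and TGA4 are closely related transcription factors of the bZIP class, which bind DNA as dimers through a basic region next to a leucine zipper. TGA factors are best known as partners of NPR1 in salicylic acid defence signalling. In roots, TGA1 and TGA4 are also known as regulators of nitrate-responsive genes, among them high-affinity nitrate transporters, and of root system growth. The comparison asks which root transcripts differ between the genotypes when no nitrate is given.

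RNA was measured on 12 single-channel arrays, with 1 value per probe set (a group of probes for a transcript) on a log2 scale, so that a difference of 1 is a 2-fold difference. Of 22746 probe sets tested, 13513 were named with 1 gene, 503 with several and 8730 with none; the last are given by identifier. TGA1 and TGA4 are not analysed here by name, so the genotype labels were not checked on the mutated genes themselves. Sample medians lay between 2.21 and 2.41 on the log2 scale in all 12 samples. Of the root markers, EXPA7 and EXPA18 for root hairs and AT1G09750 and AT1G62500 for cortex were measured by name. So were 1 of 4 listed markers of non-hair epidermis and 2 of 4 of lateral roots. No listed marker of endodermis, stele, xylem, root cap or meristem was. A measure of RNA integrity, the actin control's 3′ minus 5′ signal, was 1.73, 1.8 and 1.54 in tga1 tga4 KCl roots, against 1.89, 2.25 and 2.46 in wild-type KCl roots. The groups did not overlap in it. For the GAPDH control they did, at 0.139, -0.184 and -0.207 in the mutant, against -0.0005, 0.050 and 0.284 in the wild type. The ubiquitin control read -0.163, -0.233 and -0.255 in the mutant, against -0.161, -0.061 and -0.001 in the wild type, so its groups nearly touched. The part of RNA integrity in the results below was not tested. In whole roots, fewer cells of a type and less RNA per cell cannot be told apart.

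In KCl-treated roots 4 probe sets passed the test, all lower in tga1 tga4. They were 0.0176% of the 22746 probe sets tested with limma at an adjusted p of 0.05, and none of them had a gene name in the table used here. Whether any of the 4 measures TGA1 or TGA4, the genes mutated in these plants, was not analysed here, and the calls under either salt are to be read with that. No probe set was called higher, while 402 (1.77%) were higher and 666 (2.93%) lower at an unadjusted p under 0.05. Together these were 4.7% of all probe sets, below the share that this threshold gives without any difference. With the replicate number as a block, as described below, 799 were higher and 1324 lower at that threshold, together 9.33%. The share thus depended on the model. The median difference over all probe sets was -0.0075 on the log2 scale, and the median standard error of a difference was 0.16. At least 2-fold differences were few: 35 probe sets (0.154%) were higher and 6 (0.0264%) lower by that size, called or not.

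The probe set 247199_at had the lowest p. Its log2 signal was 1.48, 1.03 and 0.79 in tga1 tga4 KCl roots, against 5.08, 4.61 and 4.17 in wild-type KCl roots. Every mutant sample was low and every wild-type sample high, with a gap of over 2 log2 units between the groups. The difference was -3.52 ± 0.24 (SE, n = 3 samples a group) on the log2 scale, 11.5-fold lower in the mutant (limma, adjusted p = 0.000178). The table held no detection calls, so whether the low mutant values stood above background was not analysed here. Where they did not, as may also hold for 250463_at and 260851_at, the fold is a lower bound.

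For 250463_at the log2 signal was 0.43, 0.84 and 0.59 in tga1 tga4 KCl roots, against 2.93, 2.45 and 2.63 in wild-type KCl roots. The groups again lay apart, with all mutant samples close to the lowest values on the arrays. The difference was -2.05 ± 0.16 (SE), 4.14-fold lower in the mutant (limma, adjusted p = 0.000445). The third, 260002_at, kept a clear signal in the mutant: 3.73, 4.34 and 4.01 in tga1 tga4 KCl roots, against 5.84, 5.75 and 5.66 in wild-type KCl roots. It was 3.30-fold lower (log2 difference -1.72 ± 0.18, limma, adjusted p = 0.00766).

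The fourth, 260851_at, read 1.12, 0.95 and 1.16 in tga1 tga4 KCl roots, against 2.54, 2.64 and 2.22 in wild-type KCl roots. Its wild-type samples were the higher ones throughout, and it was 2.63-fold lower in the mutant (log2 difference -1.39 ± 0.17, limma, adjusted p = 0.0188). Next by p and short of the threshold came 252534_at, with 1.00, 0.70 and 0.85 in tga1 tga4 KCl roots, against 3.37, 2.32 and 2.74 in wild-type KCl roots. These groups did not overlap either, but the wild-type samples spread over more than 1 log2 unit. Its difference of -1.96 ± 0.30 had an adjusted p of 0.144 in limma.

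**Figure D1:**
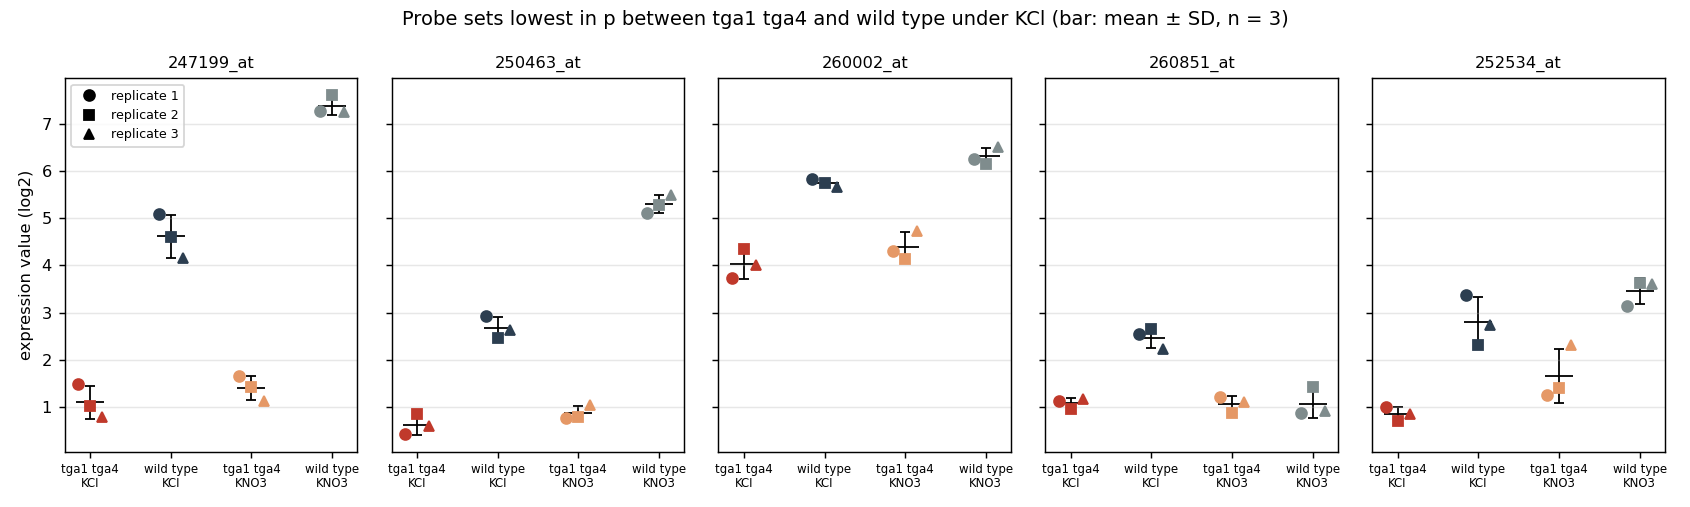
Log2 signal of the 4 probe sets called under KCl and of 252534_at, next in p, in each of the 12 samples; points are samples, their shape gives the replicate number and bars are group means ± SD (n = 3), with tga1 tga4 left of wild type within each salt. Under KCl all 3 tga1 tga4 samples lie below all 3 wild-type samples in each panel; under KNO3 the same holds for every panel except that of 260851_at, where both genotypes lie between 0.87 and 1.42.

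The same probe sets in the KNO3 samples, which were not used for the KCl difference except through the shared estimate of spread, gave 3 calls between genotypes, 0.0132% of all probe sets, and these were 247199_at, 250463_at and 260002_at. Under KNO3, 247199_at read 1.64, 1.43 and 1.12 in tga1 tga4 roots, against 7.27, 7.61 and 7.26 in wild-type roots, a difference of -5.98 ± 0.24 (limma, adjusted p = 2.27e-07). For 250463_at the KNO3 values were 0.76, 0.79 and 1.05 in tga1 tga4 roots, against 5.11, 5.29 and 5.50 in wild-type roots, a difference of -4.43 ± 0.16 (limma, adjusted p = 1.54e-07). In both, the mutant stayed low under either salt while wild-type roots were higher under KNO3 than under KCl.

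The test of the difference between salts, the genotype-by-salt interaction, called 1 probe set, 0.0044% of those tested. That was 250463_at, with an interaction of -2.38 ± 0.23 on the log2 scale (limma, adjusted p = 0.00731). Its mutant values were near the lowest on the arrays under both salts, so the genotype differences may be lower bounds and the interaction does not by itself show that they depend on the salt. For 247199_at the interaction was of like size, -2.46 ± 0.34, with an adjusted p of 0.145, and with the replicate number as a block, as described below, the adjusted p was 0.00191 (limma). The genotype difference of 260002_at was nearly as large under KNO3, -1.92 ± 0.19 (limma, adjusted p = 0.0025), and its interaction of -0.19 had a 95% interval from -0.77 to 0.38.

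The fourth called probe set behaved differently in the KNO3 samples. There 260851_at read 1.2, 0.87 and 1.1 in tga1 tga4 roots, against 0.87, 1.42 and 0.92 in wild-type roots, so the groups overlapped and the difference was -0.01. The mutant had about the same value under both salts, and the wild type was high under KCl only. Its interaction of 1.38 ± 0.24 did not pass (limma, adjusted p = 0.734), so the absence of a call under KNO3 does not by itself show that the difference depends on the salt. For 252534_at the difference under KNO3 was -1.81 ± 0.30, close to that under KCl.

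Samples of the 2 genotypes with the same replicate number deviated from their group means together, and a model with the number as a block within each salt called 18 probe sets under KCl in place of 4. These were 0.0791% of all probe sets, 10 higher (0.044%) and 8 lower (0.0352%) in tga1 tga4, and they included the 4 above. The block leaves 4 residual degrees of freedom against 8 without it. With the number as a random block instead (estimated correlation 0.28), 6 were called, 0 higher and 6 lower, so none of the 10 higher calls was made; HRGP1 then had an adjusted p of 0.0868 and AT5G04960 of 0.170 (limma). Of the 14 added calls 9 had a gene name, 7 higher and 2 lower. Among the unnamed ones, 252534_at had an adjusted p of 0.00292 (limma with block). Another unnamed one, 255812_at, was the one with the largest rise, 1.82 on the log2 scale (limma with block, adjusted p = 0.0168). Without the block none of the 10 higher calls passed, the lowest adjusted p among them being 0.5445 (limma).

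**Figure D2:**
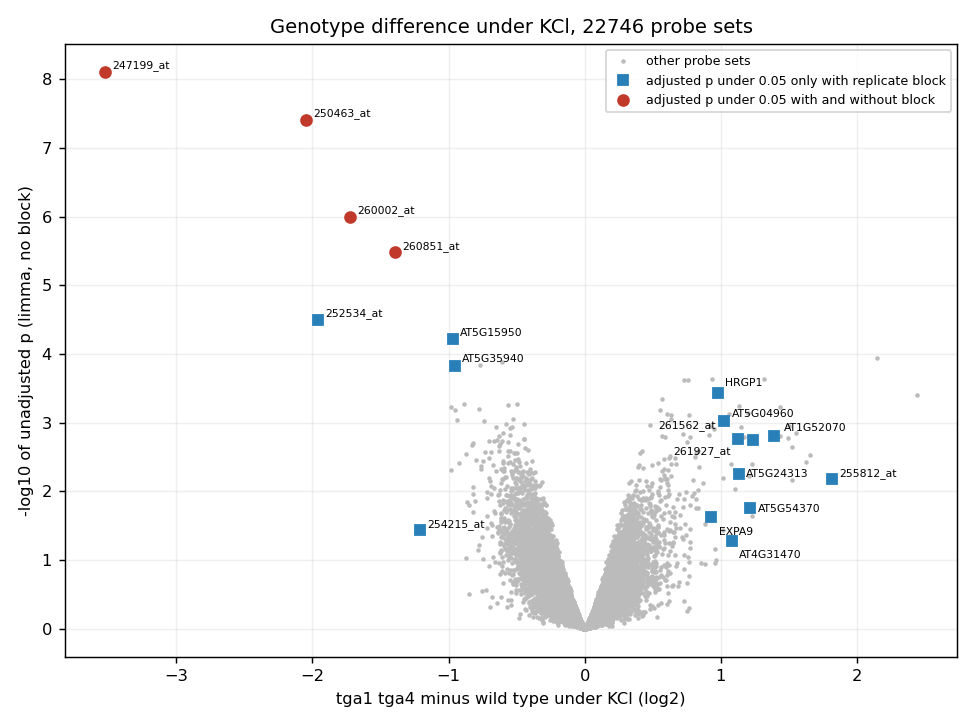
Mutant minus wild-type difference under KCl (log2, x axis) against -log10 of the unadjusted limma p without a block (y axis) for 22746 probe sets. Circles mark the 4 probe sets called with and without the block, all lower in tga1 tga4; squares mark the 14 called with the block only, of which 10 lie on the higher side.

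The calls below are those of the fixed block. EXPA9, an expansin (a protein that loosens the wall during growth), read 3.19, 4.42 and 4.17 in tga1 tga4 KCl roots, against 2.29, 3.25 and 3.45 in wild-type KCl roots. The groups overlapped, but within each replicate number the mutant was higher, by 0.90, 1.18 and 0.72 for numbers 1, 2 and 3. The mean difference was 0.93 (limma with block, adjusted p = 0.0337). Without the block the adjusted p was 0.978.

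HRGP1, a hydroxyproline-rich glycoprotein of the extensin kind (a structural wall protein), read 5.83, 5.95 and 6.59 in tga1 tga4 KCl roots, against 4.99, 5.08 and 5.37 in wild-type KCl roots. All mutant samples lay above all wild-type samples, and the difference was 0.97 (limma with block, adjusted p = 0.0337, and 0.544 without it). The identifier of this probe set ends in x_at, which marks probes that can also detect similar sequences, so its signal may hold several transcripts. AT5G04960, of the pectin methylesterase family, which modifies wall pectin, differed by 1.02 (limma with block, adjusted p = 0.046).

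AT1G52070 encodes a jacalin-related lectin, a sugar-binding protein. Its log2 signal was 4.65, 5.91 and 5.20 in tga1 tga4 KCl roots, against 3.84, 3.92 and 3.83 in wild-type KCl roots. The wild-type samples were nearly equal and the mutant samples all higher, by 1.39 on average (limma with block, adjusted p = 0.0337; without it, 0.607). AT1G52060 and AT1G52050, 1 and 2 genes away from it on the chromosome, are lectins of the same family and differed by 1.07 and 0.77. Neither was called, and in both the groups overlapped. AT1G52000 and AT1G52100, family members 8 and 6 genes away, differed by -0.12 and -0.09. The near copies share sequence, so the probe sets of this row of genes may share signal.

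The remaining named calls higher with the block were AT4G31470, a relative of the pathogenesis-related PR-1 proteins, at 1.08, AT5G54370, related to late embryogenesis proteins, at 1.22, and AT5G24313 at 1.13 (limma with block, adjusted p = 0.046, 0.0481 and 0.0482). For AT4G31470 the spread between replicate numbers exceeded the genotype difference: its signal was 2.71, 4.53 and 4.34 in tga1 tga4 KCl roots, against 1.76, 3.01 and 3.58 in wild-type KCl roots.

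The 2 named genes called lower with the block were a polyamine enzyme and another lectin. AT5G15950, an S-adenosylmethionine decarboxylase, which supplies the aminopropyl groups for spermidine and spermine, read 4.61, 5.04 and 4.57 in tga1 tga4 KCl roots, against 5.53, 5.71 and 5.88 in wild-type KCl roots. All mutant samples were below all wild-type samples, and the difference was -0.97 (limma with block, adjusted p = 0.046; without it, 0.231). Under KNO3 it was -0.57. The other measured polyamine genes, SAMDC and AT3G25570, differed by -0.08 and 0.10 under KCl, and 3 of the 12 listed were measured by name.

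AT5G35940, a jacalin-related lectin like AT1G52070, lay on the opposite side. It read 2.62, 3.12 and 2.53 in tga1 tga4 KCl roots, against 3.72, 3.82 and 3.60 in wild-type KCl roots, with no overlap, and the difference was -0.96 (limma with block, adjusted p = 0.0386; without it, 0.335). Under KNO3 the difference was -1.02 ± 0.17, with 3.21, 3.32 and 3.39 in tga1 tga4 roots, against 4.13, 4.21 and 4.64 in wild-type roots (limma, adjusted p = 0.372). This gene was thus lower in every mutant sample than in every wild-type sample of the same salt, under both salts.

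Beyond the calls, the 12 named genes with the lowest p among those with every tga1 tga4 KCl sample above every wild-type KCl sample differed by 0.48 to 1.43 on the log2 scale. None passed without the block (limma, adjusted p between 0.393 and 0.590), and HRGP1 and AT5G04960 passed with it. Over all probe sets, 866 were higher without overlap, 3.81%, and 1214 were lower without overlap, 5.34%, together 9.14%. With 3 samples a group, samples in random order would lie apart in about such a share. These 12 genes were picked from the higher ones for their p, so their sizes describe the upper edge of the data.

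Of the 12, 3 were class III peroxidases, which are secreted enzymes that use hydrogen peroxide to cross-link or loosen wall polymers. AT4G26010 read 5.45, 6.48 and 6.32 in tga1 tga4 KCl roots, against 5.13, 4.52 and 4.64 in wild-type KCl roots, a difference of 1.32 ± 0.25 (limma, adjusted p = 0.393). AT1G30870 read 5.66, 6.75 and 6.47 in tga1 tga4 KCl roots, against 5.38, 5.00 and 5.06 in wild-type KCl roots, a difference of 1.15 ± 0.27. AT3G49960 read 4.40, 4.86 and 4.92 in tga1 tga4 KCl roots, against 4.23, 3.19 and 3.58 in wild-type KCl roots, a difference of 1.06 ± 0.23. In all 3 the mutant sample numbered 1 was the lowest of its group and lay closest to the wild-type samples.

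The largest difference of the 12 was that of AT4G22640, with 2.88, 4.13 and 3.97 in tga1 tga4 KCl roots, against 2.47, 2.33 and 1.89 in wild-type KCl roots, 1.43 ± 0.31 on the log2 scale (limma, adjusted p = 0.553). AT2G45670, an acyltransferase that makes phosphatidylethanolamine from its lyso form, read 3.83, 4.08 and 3.81 in tga1 tga4 KCl roots, against 3.11, 3.44 and 2.90 in wild-type KCl roots, a difference of 0.76 ± 0.15 (limma, adjusted p = 0.393). It was the one member of the 12 whose difference under KNO3 had the same sign and an unadjusted p under 0.05, at 0.64 ± 0.15, with 3.92, 3.95 and 3.71 in tga1 tga4 roots, against 3.28, 3.26 and 3.12 in wild-type roots (limma, adjusted p of 1). The others were AT4G31080 at 0.93, AT4G27652 at 0.95, the short-chain dehydrogenase AT2G29340 at 0.73, AT4G20470 at 0.56 and AT3G51330, an aspartyl protease, at 0.48.

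The 12 lower named genes chosen by the same rule differed by -0.50 to -0.98, and none passed without the block (limma, adjusted p between 0.231 and 0.607). AT5G15950 had the lowest p of them, and both it and AT5G35940 are described above. AT1G50110, a branched-chain aminotransferase of leucine, isoleucine and valine metabolism, read 3.23, 3.33 and 3.44 in tga1 tga4 KCl roots, against 3.87, 4.19 and 4.24 in wild-type KCl roots, a difference of -0.77 ± 0.14 (limma, adjusted p = 0.335). Of the other aminotransferases of this kind, BCAT4 and ATBCAT-5 were measured by name and differed by 0.04 and 0.10.

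EEL, a bZIP transcription factor known from late seed development, had the largest difference of the 12. It read 2.18, 2.68 and 2.30 in tga1 tga4 KCl roots, against 3.50, 3.05 and 3.56 in wild-type KCl roots, -0.98 ± 0.21 on the log2 scale (limma, adjusted p = 0.553). Under KNO3 its difference was 0.01. AT1G19715, a further jacalin-related lectin, differed by -0.95 ± 0.21 under KCl and 0.09 under KNO3. The receptor-like kinases AT2G33170 and AT1G68400 differed by -0.74 and -0.60, AT1G34270, of the exostosin glycosyltransferase family, by -0.88, AT1G56350 by -0.58, AT4G01730 by -0.55, AT4G01860 by -0.53 and AT3G21540, a WD-repeat protein, by -0.50.

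**Figure D3:**
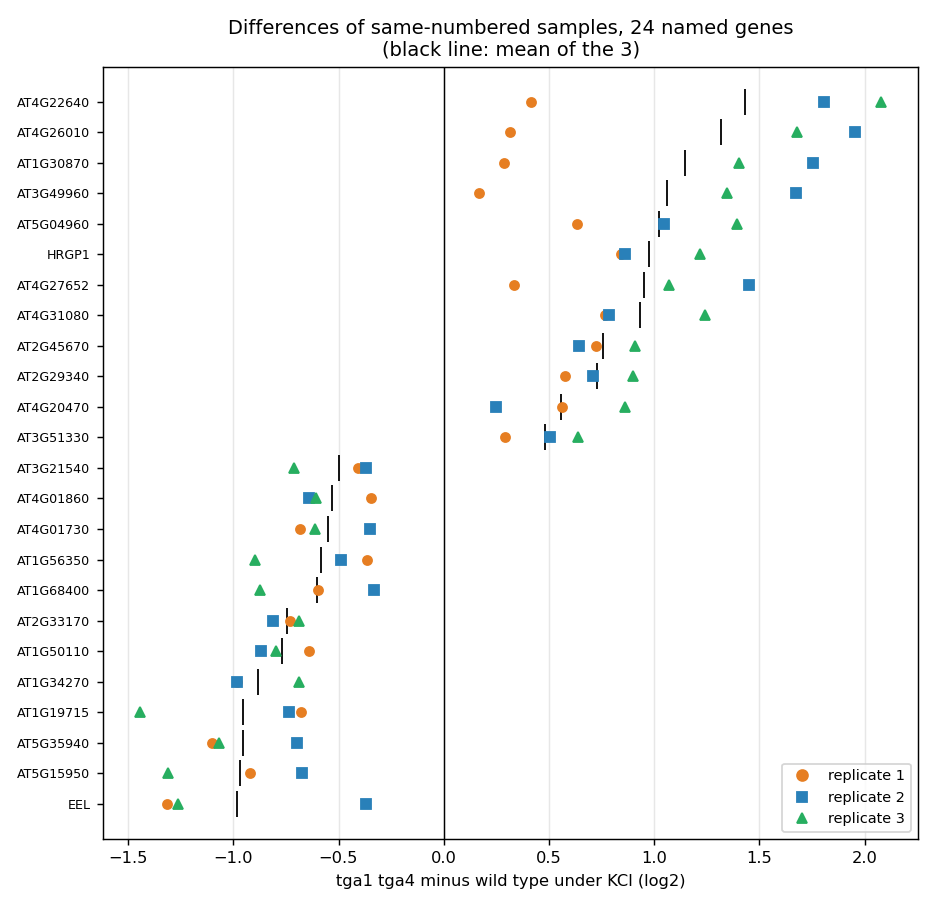
Mutant minus wild-type difference under KCl within each replicate number (log2, x axis) for the 12 higher and 12 lower named genes; each symbol is 1 pair of same-numbered samples and the black line their mean. All 3 pairs share the sign in every row, and in several of the higher genes, such as AT4G26010 and AT1G30870, pair 1 lies closest to 0.

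Many of the higher differences were smallest between the samples numbered 1. Of the 35 probe sets at least 2-fold higher under KCl, pair 1 had the smallest of the 3 pair differences in 33, and the mutant sample numbered 1 was the lowest of its group in 31. The median differences over these 35 were 0.41, 1.75 and 1.63 for pairs 1, 2 and 3. Both samples numbered 1 also held more leaf marker signal than the others of their group. Of 14 listed leaf markers, LHCB4.1, RCA and FAMA (as FMA) were measured by name, and their summed linear signal was 44.5, 22.7 and 27 in tga1 tga4 KCl roots, against 47.0, 25.5 and 26.3 in wild-type KCl roots. Leaf signal therefore differed between replicate numbers and hardly between genotypes, and its part in the pair differences was not tested.

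The largest differences upward had this shape and were singled out after their values were seen. 262427_s_at read 5.01, 6.49 and 6.78 in tga1 tga4 KCl roots, against 4.84, 3.12 and 3.01 in wild-type KCl roots, a difference of 2.44 ± 0.50 (limma, adjusted p = 0.544, and 0.157 with the block). 260950_s_at read 4.72, 5.46 and 5.42 in tga1 tga4 KCl roots, against 4.02, 2.27 and 2.88 in wild-type KCl roots, a difference of 2.14 ± 0.38 (limma, adjusted p = 0.335, and 0.0713 with the block). In both, the samples numbered 1 lay close together, with the mutant one the lowest and the wild-type one the highest of its group. Their identifiers end in s_at, which marks probes shared by several transcripts, and neither has a gene name here. Under KNO3 the genotypes lay at the same level, with differences of -0.00073 and 0.06.

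The named genes with the largest differences upward were AT3G06460, of a fatty acid elongase family, and AT3G05950, a germin-like protein of the cell wall space. AT3G06460 read 2.36, 3.97 and 3.32 in tga1 tga4 KCl roots, against 1.95, 1.73 and 1.41 in wild-type KCl roots, a difference of 1.52 ± 0.39. AT3G05950 read 4.11, 3.17 and 2.57 in tga1 tga4 KCl roots, against 2.33, 1.44 and 1.51 in wild-type KCl roots, a difference of 1.52 ± 0.46. All mutant samples exceeded all wild-type samples in both genes, and the spread within the groups left them uncalled (limma, adjusted p = 0.656 and 0.84, and 0.137 and 0.096 with the block).

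Without the tga1 tga4 KCl sample numbered 1, 18 probe sets were called, 0.0791% of all, 14 higher and 4 lower, the lower ones being the same 4. With the block and without both KCl samples numbered 1, 94 were called, 0.413% of all, 70 higher and 24 lower, among them 17 of the 18 called with all pairs. Of these 94, 45 had 1 named gene, 38 higher and 7 lower. Class III peroxidases were 5 of the 45, beside 55 of all 13355 named genes. That family was listed after its members had been seen, and pair 1 was left out after its values were seen. The count of 5 therefore adds no support. With all samples no class III peroxidase was called, with or without the block. With the block and without pair 2 or pair 3 instead, 5 and 3 probe sets were called. Leaving out whole KCl pairs under the block was chosen after the values were seen. Pair 1 was the one with the smallest difference in 33 of the 35 probe sets above.

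Root hair genes were among those with a low mutant sample numbered 1. EXPA7 and EXPA18 are expansins of growing root hairs. EXPA18 read 3.09, 4.56 and 4.72 in tga1 tga4 KCl roots, against 3.12, 2.83 and 2.74 in wild-type KCl roots, and EXPA7 read 2.92, 4.47 and 4.0 in tga1 tga4 KCl roots, against 2.63, 2.76 and 2.77 in wild-type KCl roots. In both, mutant samples 2 and 3 were high. Mutant sample 1 lay within the wild-type range for EXPA18 and just above it for EXPA7. Over all 3 samples the differences were 1.23 ± 0.34 and 1.07 ± 0.30, neither called (limma, adjusted p = 0.754 for each). Without the mutant sample numbered 1 they were 1.74 ± 0.19 and 1.51 ± 0.18, both called (limma, adjusted p = 0.00803 and 0.0146). AT4G26010, AT4G22640, AT5G17820, AT2G47540 and AT5G24230 were the other named genes called in that setting. Without mutant sample 2 or 3 instead, 0 probe sets were called higher. The sample left out was the mutant one nearest the wild-type level, so the calls of EXPA18 and EXPA7 without it add no support. Of the 7 listed root hair markers only these 2 were measured by name. The cortex marker AT1G62500 read 4.58, 3.19 and 4.02 in tga1 tga4 KCl roots, against 4.60, 4.65 and 4.57 in wild-type KCl roots, and AT1G09750 read 1.07, 1.36 and 0.90 in tga1 tga4 KCl roots, against 0.65, 1.47 and 1.71 in wild-type KCl roots. Neither was called (limma, adjusted p of 1 for each). Within pairs 1, 2 and 3 the median difference was 0.20, -0.78 and -0.68 for the 2 cortex markers, beside 0.13, 1.72 and 1.6 for the 2 root hair markers. In the same pairs the 1 measured marker of non-hair epidermis differed by 0.30, -0.32 and 0.02. For the 2 lateral root markers the median was -0.53, 0.44 and -0.10. The part of cell type in these differences was not tested.

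As a family, the 19 expansins measured by name held 3 members higher without overlap and 0 lower, 15.8% and 0%, beside 3.95% and 5.06% of all 13355 named genes. The median difference was 0.11 for the family and -0.0038 for all named genes. The 3 were EXPA7 at 1.07, EXPA8 at 0.78 and EXPB5 at 0.11, and EXPA9 was the member called with the block. EXPA8 read 4.81, 5.14 and 5.11 in tga1 tga4 KCl roots, against 3.77, 4.62 and 4.31 in wild-type KCl roots. Under KNO3 the family median was -0.13. Within KCl pairs 1, 2 and 3 it was -0.014, 0.11 and 0.099. The list was chosen with earlier results of these data known, so its counts describe the family and add no support.

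Of 73 class III peroxidase genes, 55 were measured by name, with 8 higher and 2 lower without overlap, 14.5% and 3.64%, beside 3.95% and 5.06% of all named genes. None was called with or without the block. This list was drawn up after AT4G26010 and its relatives had been seen among the named genes, so its counts describe the family and support nothing. The median difference was 0.06, and the members ranged from -0.34 to 1.32. Besides the 3 above, AT5G17820 read 7.01, 7.92 and 7.80 in tga1 tga4 KCl roots, against 6.96, 6.53 and 6.74 in wild-type KCl roots, a difference of 0.83 ± 0.22. AT5G64100, AT5G66390 and AT4G30170 differed by 0.48, 0.44 and 0.41, and AT1G68850, on the other side, by -0.31. Under KNO3 the family median was -0.10, and AT4G26010, AT1G30870, AT3G49960 and AT5G17820 differed by -0.27, -0.07, -0.03 and -0.13.

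The jacalin-related lectins, of which 20 of 37 were measured by name, had 2 members higher and 3 lower without overlap, 10% and 15%, beside 3.95% and 5.06% of all named genes, and their median was 0.06. The higher ones were AT1G52070 and AT3G21380, at 0.16, and the lower ones AT5G35940, AT1G19715 and JAL22, at -0.45. This list too was drawn up after its members had been seen. Other families were read from the gene symbols, and the same shares of all named genes apply to them. Of 51 glycosyltransferases 1 (1.96%) was higher and 3 (5.88%) lower without overlap, with a median of 0.01. Of 28 cytochromes P450 0 were higher and 2 (7.14%) lower, and of 23 TBL genes, whose products acetylate wall polysaccharides, 1 (4.35%) was higher and 0 lower. Of 8 calcium sensors and CIPKs, proteins that read calcium signals, 2 (25%) were higher and 0 lower, and of 13 ubiquitin-conjugating enzymes 0 were higher and 2 (15.4%) lower. Of 8 cellulose synthase family genes 1 (12.5%) was lower, and of 3 thioredoxins 1 (33.3%) was higher. None of these members was called with or without the block. The 14 glutathione transferases had no member without overlap and a median of 0.15.

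**Figure D4:**
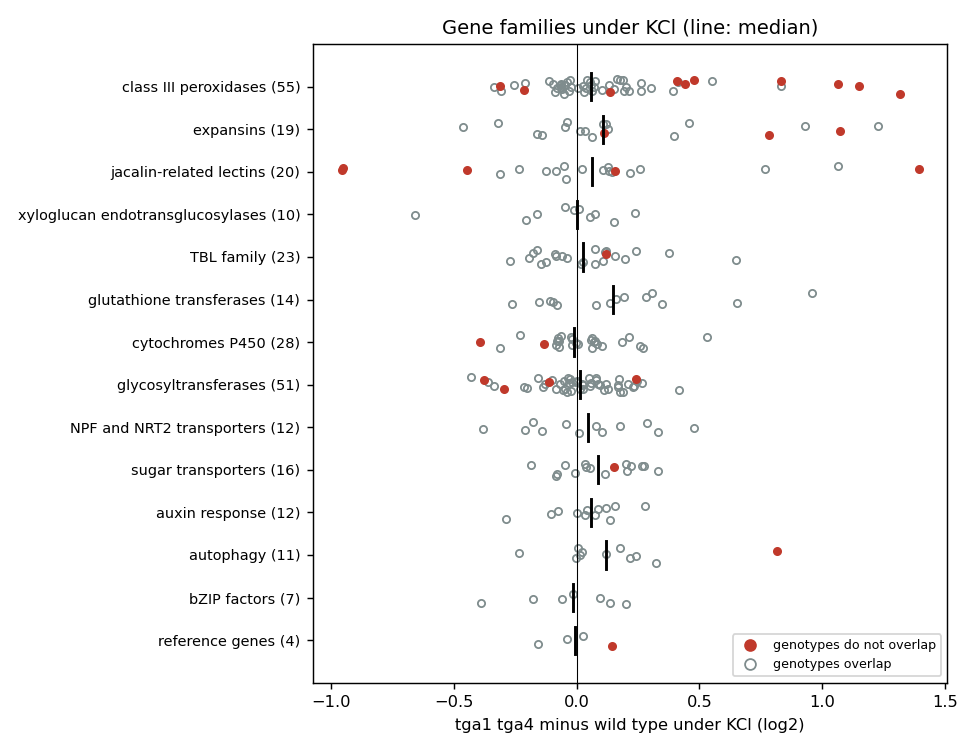
Mutant minus wild-type difference under KCl (log2, x axis) of every measured member of 14 gene groups; each point is 1 gene, filled where the genotypes do not overlap, the thick line is the median and the number of genes is in brackets. The class III peroxidases, expansins and jacalin-related lectins hold members above 1, with medians of 0.06, 0.11 and 0.06, and the other groups hold none.

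The genes that the TGA factors are known for could be followed only in part. Of 16 listed TGA and NPR genes, AT4G26120, an NPR1 relative, was measured by name, at 1.54, 1.04 and 0.88 in tga1 tga4 KCl roots, against 1.08, 0.88 and 0.98 in wild-type KCl roots. The groups overlapped, and the difference of 0.17 had a 95% interval from -0.25 to 0.60. Of 14 listed genes of nitrate uptake and reduction, NRT2.5, a high-affinity nitrate transporter of nitrogen-starved roots, was measured by name. It read 2.88, 4.53 and 4.38 in tga1 tga4 KCl roots, against 2.58, 4.06 and 3.72 in wild-type KCl roots, a difference of 0.48 with a 95% interval from -0.86 to 1.82. Both genotypes were lowest in the sample numbered 1, and the mutant was the higher of each pair, by 0.30, 0.48 and 0.66 (limma with block, adjusted p = 0.498). No listed gene of ammonium assimilation, salicylic acid defence or phosphate starvation was measured by name.

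Across probe sets, the measured genotype differences under the 2 salts were weakly correlated. Pearson's r between them was 0.10 and Spearman's rho 0.03 over 22746 probe sets, and 0.15 and 0.09 over the brighter 11373. Probe sets are not independent replicates, but the 2 differences share no samples. Noise lowers such correlations, and the median standard error of a difference was 0.16. The correlations therefore do not show how far true genotype differences were shared. Of 247 probe sets with an unadjusted p under 0.01 under KCl, 145, or 58.7%, had the same sign under KNO3, beside 51% of all probe sets. The share was 96 of 150 for the lower ones and 49 of 97 for the higher ones.

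Of the 12 higher named genes 5 (41.7%) had the same sign under KNO3, and of the 12 lower ones 7 (58.3%), beside 51% of all probe sets. The median difference of the higher genes was 0.96 under KCl and -0.05 under KNO3. For the lower genes the medians were -0.76 and -0.04. All 24 were picked for their KCl values, so smaller differences under KNO3 follow in part from that choice. HRGP1 differed by 0.97 under KCl and -0.51 under KNO3, an interaction of -1.49 ± 0.28 that did not pass (limma, adjusted p = 0.957, and 0.0619 with the block). None of the 24 had an interaction that passed.

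For several of the higher genes the wild-type KCl samples were the lowest of the 4 groups. AT4G26010 averaged 6.08 ± 0.55 in tga1 tga4 KCl roots and 4.77 ± 0.32 in wild-type KCl roots, and 6.79 ± 0.24 in tga1 tga4 KNO3 roots and 7.05 ± 0.13 in wild-type KNO3 roots (SD, n = 3 each). HRGP1 averaged 6.12 ± 0.41 in tga1 tga4 KCl roots and 5.15 ± 0.20 in wild-type KCl roots, and 6.21 ± 0.25 in tga1 tga4 KNO3 roots and 6.72 ± 0.05 in wild-type KNO3 roots. The nitrate response of each genotype shares its KCl samples with the difference under KCl, so these levels are given side by side and not tested against each other. Unlike these, 255812_at was lower under KNO3 in both genotypes and higher in the mutant under both salts, at 5.33, 4.04 and 4.07 in tga1 tga4 KCl roots, against 3.99, 1.84 and 2.15 in wild-type KCl roots, and at 1.67, 2.08 and 3.20 in tga1 tga4 KNO3 roots, against 0.98, 0.78 and 1.31 in wild-type KNO3 roots.

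**Figure D5:**
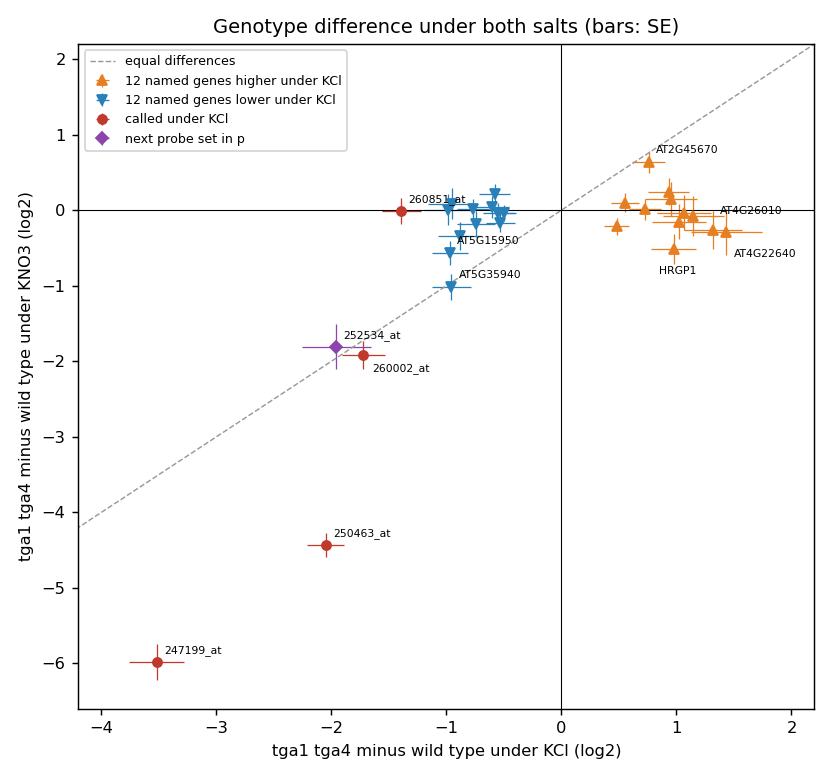
Mutant minus wild-type difference under KCl (log2, x axis) against that under KNO3 (log2, y axis), with bars of 1 SE, for the 4 called probe sets, 252534_at and the 24 named genes; the dashed line marks equal differences. The 12 higher genes lie near 0 on the KNO3 axis except AT2G45670 at 0.64 and HRGP1 at -0.51, while 260002_at, 252534_at and AT5G35940 lie near the line.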

How the data were processed

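RNA from roots was extracted with TriZol and biotin-labelled cRNA made with an Affymetrix 3' kit, per the labels' protocols. The authors deposited 1 log2 value per probe set and array, made by a method not given in the sources used here. Hybridisation controls settled the scale, with a slope of 0.927 on log2 nominal concentration. Of 22810 probe sets 64 controls were left out. A supplied platform table gave the gene names, and RefSeq (TAIR10.1) the symbols of 13436 of the 13513 single-gene probe sets. In lists, the probe set with the highest mean stood for its gene.

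The limma model (version 3.58.1, R 4.3.3) held 1 mean for each of 4 groups of 3 samples, and tests were two-sided, without an intensity trend, adjusted by Benjamini-Hochberg over 22746 probe sets. Values come from this model unless a block is named. Same-numbered KCl samples deviated together, with correlations of 0.53, 0.34 and 0.50 across the brighter 50% of probe sets. Values with the number as a block are given for that reason. Under KNO3 the same-number correlations were 0.28, 0.64 and 0.73. Samples numbered 1 and 2 of opposite genotypes also correlated there, at 0.21 and 0.26, and the other differently numbered ones did so negatively. Named are the called probe sets and the next by p, the 12 single-gene probe sets per direction with the lowest p among those without overlap, and members of lists. Probe sets called with the block or singled out by size were named after their values were seen. The members and lists were chosen with earlier results of these data known. Alternatives were other variance models, scalings, filters, weights, blocks and left-out samples. The number of arrays limits the precision. The model was tested on simulated data. These held no effect shared by samples of the same number, so that test does not bear on the choice of block.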

Additional observations from a re-analysis of the deposited data

Results flagged for a closer look

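The probe set 250463_at, which has no gene name here, was singled out because the test of the difference between salts passed for it. Whether it measures one of the mutated genes was not analysed here. The mutant minus wild-type difference was -4.43 under KNO3 and -2.05 under KCl, an interaction of -2.38 ± 0.23 (SE) on the log2 scale (limma, adjusted p = 0.00731). All 3 tga1 tga4 samples lay below all 3 wild-type samples under each salt. Without the wild-type KCl sample numbered 3, or without the tga1 tga4 KNO3 sample numbered 1, the interaction of 250463_at did not pass, so this call rests on each of those samples. The mutant values, 0.43 to 1.05 under both salts, were close to the lowest on the arrays. Should they be background, each difference is a lower bound in size, and the interaction does not show that the genotype difference depends on the salt.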

How the results depend on the processing

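The count of 4 calls under KCl, 0 higher and 4 lower, became 18, 10 higher and 8 lower, with the fixed replicate block of salt and number, and 6, 0 higher and 6 lower, with the random replicate block. With the block in the 6 KCl samples alone it was 5, with 1 higher, and in those samples without a block it was 2, both lower. The count ranged from 2 to 18 when 1 sample was left out, with 0 to 14 higher and 2 to 5 lower. It was 18 without tga1 tga4 KCl replicate 1 and 2 without tga1 tga4 KCl replicate 3 or wild type KCl replicate 2, and 2 were lower without wild type KCl replicate 1. With the block and 1 KCl pair left out, added after seeing the data, it ranged from 3 to 94, with 0 to 70 higher and 3 to 24 lower. Of the 4, the 1 with an interaction that passed became 2 with the fixed or the random replicate block, median centring or array weights, and ranged from 0 to 2 with 1 sample left out. An intensity trend, robust variances, the brighter 50% of probe sets, quantile normalization, median centring and array weights left the KCl count between 3 and 5, and 3 of these 4 probe sets were called under KNO3 in each alternative run for that contrast, which called 4 over all probe sets with the fixed block. 247199_at and 250463_at were called in all 22 alternatives computed for them, with adjusted p up to 0.0346 and 0.0374 (limma). 260002_at was called in 18 of 22, with adjusted p up to 0.0921, and 260851_at in 15 of 21, with adjusted p up to 0.144. For the single probe sets named by rule, 592 values kept direction and call, 7 gained a call and 10 lost one; no sign reversed.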
